A study of Arabidopsis thaliana with 6 samples.

Results

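Genes of the phosphate starvation response, 10 of the 27416 in a gene expression table from Arabidopsis thaliana seedlings, were followed across 6 libraries. They are the phosphatase genes PEPC1 and PS2, the SPX domain genes SPX1, SPX2 and SPX3, the phosphate transporter genes PHT1;1 and PHT1;4, the exporter gene PHO1, and the sulfolipid genes SQD1 and SQD2. They were chosen by locus identifier with their values in water and CLE9 already known, so their differences between these groups are given as a description, without a test.

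RNA was measured in wild-type seedlings aged 7 days, 3 libraries from seedlings given water and 3 from seedlings given the synthetic signalling peptide CLE9 at 200 nM. CLE9 belongs to a family of small secreted peptides that are perceived by receptor kinases. Both groups share the genotype, and the labels name no other treatment. The duration of treatment, the phosphate content of the medium and whether libraries of a group derive from separate plant cultures are not given in the sources used here. Any p-value therefore sets a difference between the groups only against how far these libraries vary, and that variation may be technical.

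Plants short of phosphate switch on a set of genes that raise uptake, release phosphate from organic compounds and replace membrane phospholipids with lipids that hold no phosphate. The transcription factor PHR1 drives much of this set by binding a short palindrome known as P1BS. SPX proteins sense inositol pyrophosphates and hold PHR1 back while phosphate is ample, and the ubiquitin enzymes PHO2 and NLA remove phosphate transporters. PHT1 proteins take phosphate up at the root surface, and PHO1 loads it into the xylem for the shoot.

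The P1BS letters GNATATNC were searched in the 500 bases before the start of each protein-coding gene of the RefSeq annotation (TAIR10.1). The motif is its own reverse complement, so 1 search covers both strands. It was found before 4 of the 10 genes, before 33 of 79 other genes of the phosphate pathway (41.8%), and before 10.7% of all 27443 promoters of that length. PEPC1, PS2 and SQD2 carried the same 8 letters, and SPX3 had 2 matches with other letters at the free positions. The windows below show each match in capitals with the bases around it, in the direction of the gene.
PEPC1: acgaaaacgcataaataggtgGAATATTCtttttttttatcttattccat
PS2: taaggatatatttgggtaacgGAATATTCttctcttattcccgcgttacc
SQD2: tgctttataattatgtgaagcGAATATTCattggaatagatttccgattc
SPX3, far match: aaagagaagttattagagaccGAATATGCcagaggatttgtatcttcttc
SPX3, near match: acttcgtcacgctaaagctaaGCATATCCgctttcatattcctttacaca
These windows lie at chr1:6092361-6092410 (minus strand), chr1:27466537-27466586 (minus), chr5:90429-90478 (minus), chr2:18606176-18606225 (plus) and chr2:18606299-18606348 (plus) of TAIR10.1. The capitals begin 362, 217, 340, 213 and 90 bases before the gene start. A match in these letters does not show that PHR1 binds there, and the absence of a match before the other 6 genes says only that these letters were not in this window.

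Levels are in FPKM, fragments per kilobase of transcript scaled to the number of mapped fragments, which can be compared between genes. The estimated depth was 20.5 to 31.6 M fragments per library. In water, PHO1 (47.6 ± 26.8 FPKM, SD, n = 3), PHT1;1 (45.9 ± 26.6), SQD1 (35.1 ± 1.66) and SPX1 (30.3 ± 16.2) had the highest levels, and the values of these 4 genes overlapped. SQD2 (20.6 ± 1.88) lay within the ranges of PHO1, PHT1;1 and SPX1, and in control replicate 2 it was above these 3 genes. Its values lay above all those of SPX2 (11.6 ± 3.23). SPX2 and PHT1;4 (8.87 ± 2.004) overlapped, and PEPC1 (3.63 ± 0.261), PS2 (1.84 ± 0.296) and SPX3 (0.115 ± 0.0700) followed without overlap between neighbours.

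The replicate 2 libraries, water and CLE9 alike, differed from the other 4 libraries, and this touches several of the 10 genes. In a list of 12 touch and wounding genes the median shift of control replicate 2 from the other controls was 4.35 log2 units, and that of CLE9 replicate 2 from the other CLE9 libraries was 2.85. Over all genes tested these median shifts were -0.19 and -0.23. The marker lists used here were chosen with earlier results of these data known. All 14 root markers (root hair, endodermis and related genes) were at or above 1 FPKM in 4 libraries, 12 in control replicate 2 and 6 in CLE9 replicate 2, and none was at 0 in any library. Their summed level lay between 689 and 781 FPKM in water and was 533, 210.6 and 558 FPKM in CLE9 replicates 1, 2 and 3. PYK10 alone gave 616 to 621 FPKM of the sum in each control, so the sum says little of the other 13 markers. The 8 green tissue markers were all above 1 FPKM in every library, with a summed level of 27485 to 33101 FPKM in water and of 33593, 10183 and 28376 FPKM with CLE9. In whole seedlings, fewer cells of a type and less RNA per cell cannot be told apart. Differences of most of the 10 genes and the counts of called genes are therefore given with and without both replicate 2 libraries. Many of the other genes are given over all 6 libraries only, so their values may rest on replicate 2.

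**Figure D1:**
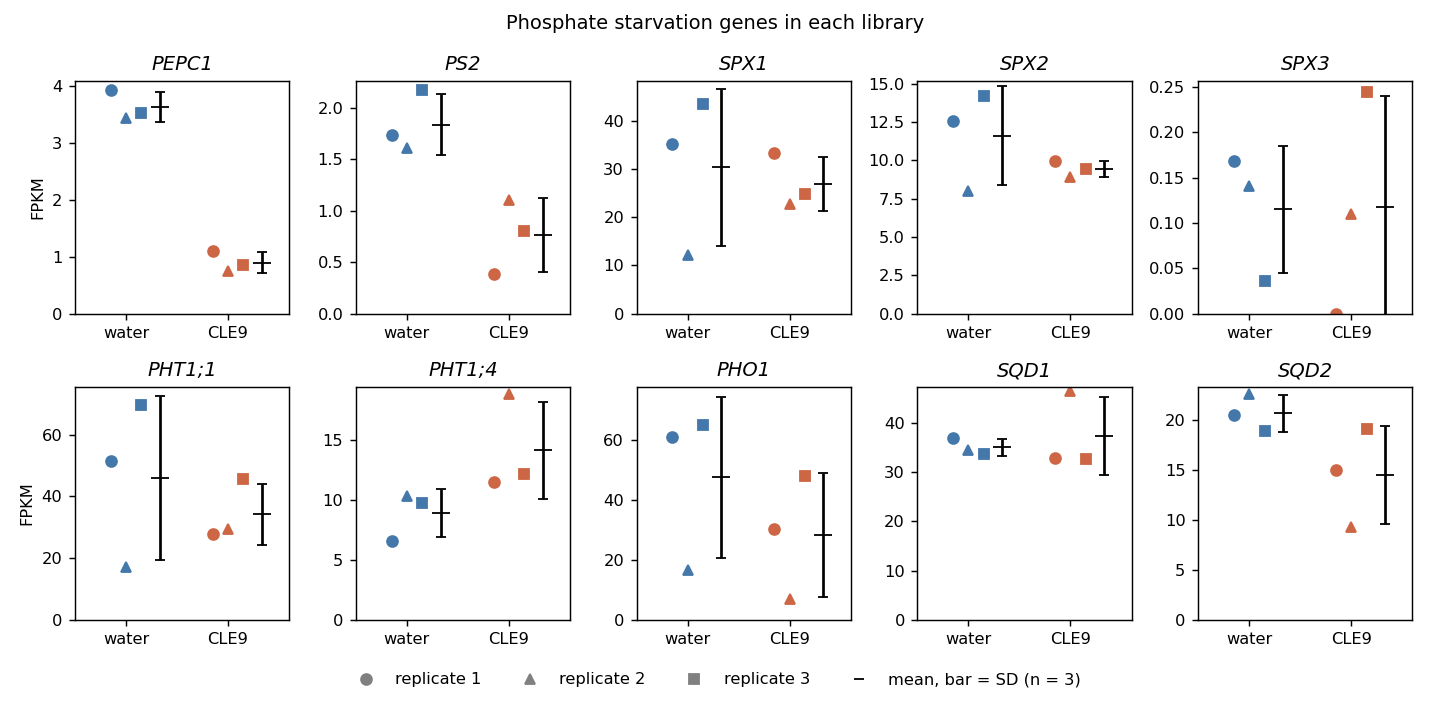
Level of each of the 10 genes in FPKM (vertical axes, each from 0) in the 3 water and 3 CLE9 libraries. Symbols give the replicate number and the black bars the mean and SD; for PEPC1 and PS2 all CLE9 points lie below all water points, and for PHT1;4 all lie above.

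Of the 10 genes, the groups did not overlap for 3: PEPC1 and PS2 were lower and PHT1;4 was higher with CLE9. Over the 17812 genes that averaged at least 1 FPKM, 7.47% were lower and 8.51% higher without overlap. The choice of the genes used this contrast, so nothing is read from these counts. A mean of 1 FPKM was reached by 9 of the 10, and SPX3 was below it. Seen in the same-numbered pairs of libraries, PEPC1, PS2 and PHO1 were lower in all 3 pairs, PHT1;4 was higher in all 3, and the other 6 were mixed. Among all genes tested, 26% were lower and 19.8% higher in all 3 pairs. The median difference of the 10 genes was -0.24 on the log2(FPKM + 1) scale, and -0.43 without both replicate 2 libraries, beside -0.05 and -0.05 for all genes tested.

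Both phosphatase genes were lower with CLE9 in every pair. PEPC1 (AT1G17710, chr1:6090560-6092027, minus strand in TAIR10) encodes an enzyme that frees phosphate from phosphocholine and phosphoethanolamine, the head groups released when phospholipids are broken down. It was at 3.93, 3.44 and 3.53 FPKM in water replicates 1, 2 and 3, and at 1.09, 0.743 and 0.848 FPKM with CLE9. The groups are well apart, and replicate 2 is not set off from the others in either of them. The mean in water was 4.06 times that with CLE9, and the difference on the log2(FPKM + 1) scale was -1.29 ± 0.09 (SE). It was -1.23, -1.35 and -1.29 in pairs 1, 2 and 3, and -1.26 without both replicate 2 libraries. At the estimated depths these levels rest on about 103 to 141 fragments per water library and 19.0 to 37.5 per CLE9 library.

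PS2 (AT1G73010, chr1:27464572-27466256, minus strand) encodes a related phosphatase that acts on pyrophosphate. Its level was 1.73, 1.61 and 2.17 FPKM in water, and 0.384, 1.0997 and 0.799 FPKM with CLE9. All CLE9 values are below all water values, and CLE9 replicate 2 is nearest to the water group. The log2(FPKM + 1) difference was -0.70 ± 0.20 (SE), with -0.98, -0.31 and -0.82 in the 3 pairs, and -0.90 without both replicate 2 libraries. Between 13.7 and 29.5 fragments per CLE9 library lie behind these levels. With a pseudocount of 0.1, which shrinks low genes less, the differences of PEPC1 and PS2 were -1.92 and -1.26.

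**Figure D2:**
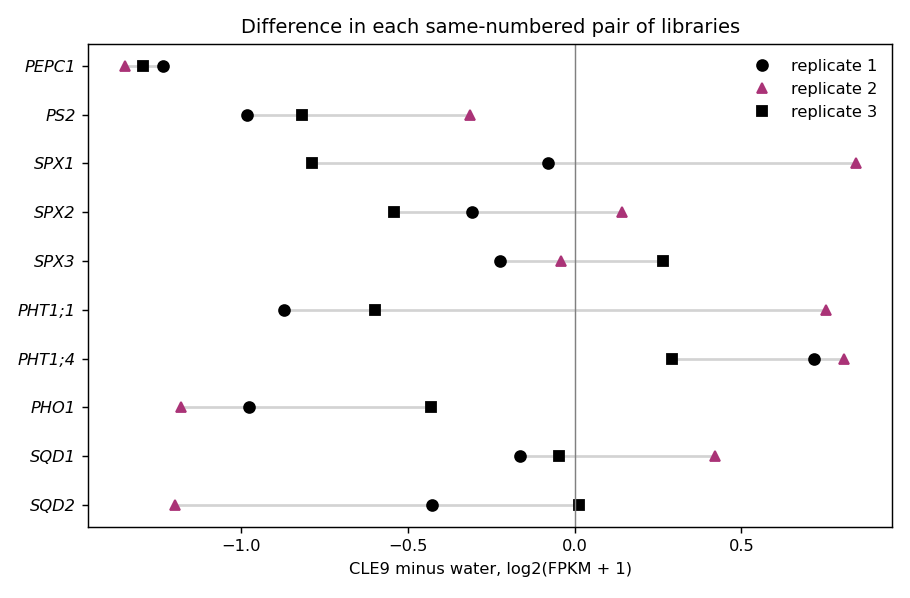
CLE9 minus water on the log2(FPKM + 1) scale (horizontal axis) for each gene in the 3 same-numbered pairs; purple triangles are replicate 2. PEPC1 lies between -1.35 and -1.23 in all pairs, while replicate 2 falls on the other side of 0 from replicates 1 and 3 for SPX1, SPX2, PHT1;1 and SQD1.

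The SPX genes, whose products restrain PHR1, overlapped between the groups. SPX1 (AT5G20150, chr5:6802372-6803625, plus strand) was at 35.2, 12.2 and 43.4 FPKM in water, and at 33.3, 22.7 and 24.8 FPKM with CLE9. Control replicate 2 is the lowest of the 6 values and the groups overlap. The difference was -0.01 ± 0.56 over all libraries and -0.43 without both replicate 2 libraries, and with 1 library left out it lay between -0.54 (without control replicate 2) and 0.33 (without control replicate 3).

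SPX2 (AT2G26660, chr2:11338932-11340950, plus strand) was at 12.6, 8.005 and 14.2 FPKM in water, and at 9.98, 8.93 and 9.46 FPKM with CLE9. The CLE9 values lie between control replicate 2 and the other controls. The difference was -0.24 ± 0.23, -0.43 without both replicate 2 libraries and -0.08 without control replicate 3.

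SPX3 (AT2G45130, chr2:18606410-18607853, plus strand) is known for very low RNA in plants with enough phosphate and strong induction without it. Here it was at 0.168, 0.141 and 0.0356 FPKM in water, and at 0, 0.110 and 0.244 FPKM with CLE9. This corresponds to an estimated 5.12 fragments or fewer in each library, and a difference between the groups was not detectable at this depth. SPX4, which is not among the 10 genes, was at 15.1 ± 1.78 FPKM in water and 12.7 ± 6.82 FPKM with CLE9 (log2 difference -0.38 ± 0.44, limma adjusted p = 0.848). Its CLE9 values were 18.3, 5.14 and 14.8 FPKM in replicates 1, 2 and 3. Without both replicate 2 libraries its difference was 0.04. Summed over SPX1 to SPX4, SPX1 gave between 36.4% and 61.6% of the level in a library, with the lowest share in control replicate 2.

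PHT1;1 and PHT1;4, phosphate-proton symporters of the root, had mean differences of opposite sign. PHT1;1 (AT5G43350, chr5:17399789-17401949, minus strand) was at 51.3, 17.0 and 69.4 FPKM in water, and at 27.6, 29.3 and 45.5 FPKM with CLE9. Control replicate 2 is again the lowest value, and CLE9 replicates 1 and 3 are below the controls of their number. The difference was -0.24 ± 0.64 over all libraries and -0.73 without both replicate 2 libraries, and it was 0.16 without control replicate 3.

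PHT1;1 has near-identical tandem copies, PHT1;2 and PHT1;3, among which the authors' counting may have divided reads. Summed over the 3 genes the difference was -0.19, and -0.68 without both replicate 2 libraries. PHT1;1 made up between 85.6% and 95.03% of that sum. Over the 9 PHT1 genes its share was 82.0%, 58.1% and 81.5% in water, and 65.97%, 55.5% and 68.1% with CLE9, so its share was lower with CLE9 in all 3 pairs, though control replicate 2 lay below CLE9 replicates 1 and 3.

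PHT1;4 (AT2G38940, chr2:16257228-16260225, plus strand) was at 6.58, 10.3 and 9.73 FPKM in water, and at 11.5, 18.8 and 12.1 FPKM with CLE9. Each CLE9 value is above each water value, with CLE9 replicate 2 the highest. The difference was 0.61 ± 0.28, with 0.72, 0.81 and 0.29 in the 3 pairs, and 0.51 without both replicate 2 libraries.

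PHO1 (AT3G23430, chr3:8387508-8393296, minus strand), which exports phosphate from the root stele into the xylem, was at 60.96, 16.7 and 65.04 FPKM in water, and at 30.5, 6.82 and 48.1 FPKM with CLE9. Both replicate 2 libraries are the lowest of their group, and each CLE9 library is below the control of its number. The difference was -0.86 ± 1.01 over all libraries, -0.98, -1.18 and -0.43 in the 3 pairs, and -0.70 without both replicate 2 libraries. Leaving out 1 library moved it to between -1.48 (without control replicate 2) and -0.09 (without CLE9 replicate 2). The groups overlap, and the spread within each is larger than the difference.

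SQD1 and SQD2 make sulfolipid, a membrane lipid of chloroplasts that can stand in for phospholipids. SQD1 (AT4G33030, chr4:15935416-15937807, plus strand) forms the sulfur-bearing sugar donor. It was at 36.9, 34.4 and 33.8 FPKM in water, and at 32.9, 46.4 and 32.7 FPKM with CLE9. CLE9 replicate 2 is the highest and the other CLE9 libraries lie just below the controls, for a difference of 0.07 ± 0.17, and -0.10 without both replicate 2 libraries.

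SQD2 (AT5G01220, chr5:86585-89986, minus strand) transfers that sugar to diacylglycerol. It was at 20.5, 22.6 and 18.8 FPKM in water, and at 14.98, 9.29 and 19.04 FPKM with CLE9. CLE9 replicate 3 lies within the water group, CLE9 replicate 1 below it, and CLE9 replicate 2 is the lowest. The difference was -0.54 ± 0.29, with -0.43, -1.198 and 0.01 in the 3 pairs, -0.21 without both replicate 2 libraries and -0.27 without CLE9 replicate 2 alone.

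Within the groups, the 10 genes departed unequally in replicate 2. PHO1, PHT1;1, SPX1 and SPX2 had shifts of -1.85, -1.76, -1.602 and -0.68 log2 units in control replicate 2, each taken from the mean of control replicates 1 and 3. In CLE9 replicate 2 the shift of PHO1 was -2.33, while those of PHT1;1, SPX1 and SPX2 were -0.27, -0.33 and -0.11. PEPC1 shifted by -0.09 and -0.17 and PS2 by -0.17 and 0.41. The 14 root markers had a median shift of -1.17 in control replicate 2 and -1.93 in CLE9 replicate 2, and 13 of them were lower in each. Of all genes tested, 65% were lower in control replicate 2 and 64% in CLE9 replicate 2. Between the groups the root markers had a median difference of -0.69, and -0.28 without both replicate 2 libraries. Their part in the values of PHO1, PHT1;1, SPX1 and SPX2 was not tested.

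**Figure D3:**
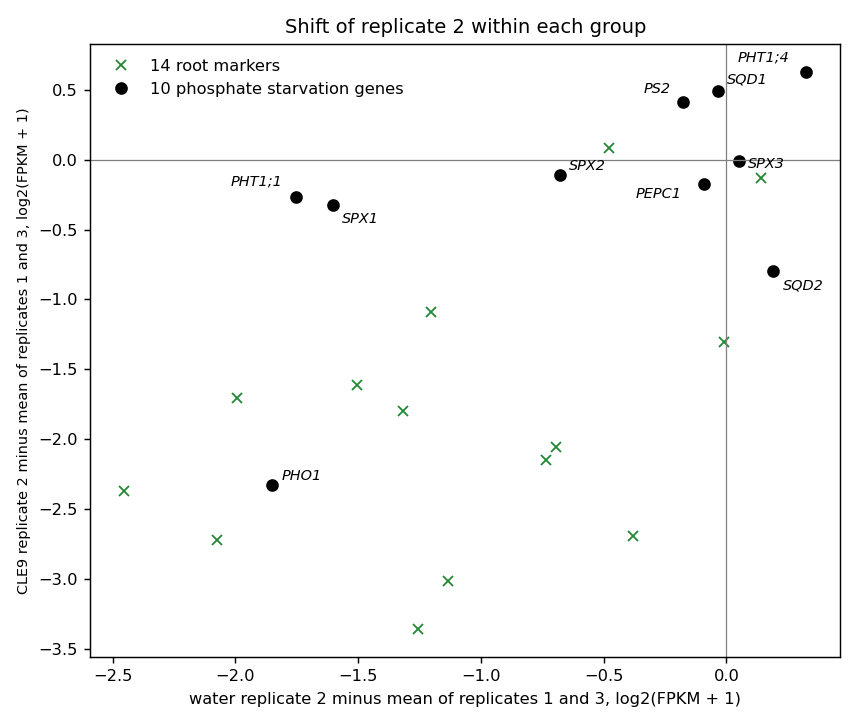
Shift of replicate 2 from the mean of replicates 1 and 3 within the water group (horizontal axis) and within the CLE9 group (vertical axis), in log2(FPKM + 1). Black points are the 10 genes and green crosses the 14 root markers; PHO1 lies at -1.85 and -2.33 among the root markers, and PEPC1 and PS2 lie within 0.5 of 0 on both axes.

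The rest of the pathway was followed in a list of 79 genes, of which 57 reached a mean of 1 FPKM and were tested with limma, with Benjamini-Hochberg adjustment over all 17812 genes. None of the 57 passed an adjusted p of 0.05 with group only, in a comparison that called 0.00561% of all genes (1 gene, lower). At an unadjusted p under 0.05, 3 of the 57 were higher and 2 lower, or 5.26% and 3.51%, beside 5.83% and 3.07% of all genes tested. With the replicate number as a block 0 of the 57 were called, against 1.99% of all genes (1.75% higher and 0.247% lower). The median difference of the 57 was -0.08, beside -0.05 for all genes. In 16 of them CLE9 was lower in all 3 pairs and in 9 higher (28.1% and 15.8%), which is near the 26% and 19.8% of all genes.

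No regulator passed the test with group only or with the block. PHR1, the factor that drives the response, was at 31.5 ± 2.61 FPKM in water and 32.5 ± 7.38 FPKM with CLE9 (log2 difference 0.02 ± 0.22, limma adjusted p = 0.989). PHO2, which marks PHO1 and PHT1 proteins for removal, was at 38.98 ± 3.24 and 31.4 ± 8.24 FPKM (adjusted p = 0.749 by limma). NLA, a ubiquitin ligase for PHT1 proteins, was at 12.2 ± 2.73 and 12.4 ± 2.09 FPKM (limma adjusted p = 0.984).

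AT4 and IPS1 encode RNAs that mimic the target of the microRNA acting on PHO2, and both are classic markers of phosphate starvation. AT4 was at 36.6, 5.46 and 48.1 FPKM in water, and at 32.9, 2.66 and 23.8 FPKM with CLE9 (log2 difference -0.65 ± 1.11, limma adjusted p = 0.908 and 0.181 with the block). It was lower with CLE9 in all 3 pairs, and like PHO1 it was lowest in replicate 2 of both groups. IPS1 was at 0.383, 0 and 0.345 FPKM in water, and at 0, 0 and 0.323 FPKM with CLE9, below the level that was tested. SIZ1, a SUMO ligase that modifies PHR1, was at 23.3 ± 0.697 and 31.1 ± 2.59 FPKM without overlap (limma adjusted p = 0.516). The transcription factor gene WRKY75 was at 7.02 ± 3.37 and 12.4 ± 1.65 FPKM (limma adjusted p = 0.520).

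Among transporters, AT4G22990, a major facilitator protein with an SPX domain, had the smallest p of the 57 genes in the fit with group only. It was at 3.48, 3.38 and 3.71 FPKM in water, and at 1.77, 1.71 and 2.41 FPKM with CLE9. All CLE9 values are below all water values, and replicate 2 is not set off. The log2 difference was -0.62 ± 0.17 (SE), with a limma adjusted p of 0.355 with group only and 0.0999 with the block, so it did not pass in either. PHO1;H1, a PHO1 homologue, was at 2.32 ± 0.595 and 1.63 ± 0.960 FPKM (limma adjusted p = 0.771).

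All 7 tested phosphatase and nuclease genes of the list had a lower mean log2 level with CLE9, 4 of them in all 3 pairs, and 0 were called by limma with or without the block. Of all genes tested 57.4% were lower, and 26% were lower in all 3 pairs. In the other roles, 5 of 6 carbon metabolism genes, 4 of 5 root growth genes and 8 of 10 lipid genes were lower. Of the transporters 5 of 10 were lower, and among the 19 regulators 7 were lower and 12 higher. The difference of PAP10, singled out after its values were seen, was near 0 over all libraries and 0.44 without both replicate 2 libraries, so the shared direction does not hold for it there. RNS1, a secreted ribonuclease induced by phosphate starvation and wounding, was at 2.23, 16.1 and 2.80 FPKM in water and 1.24, 1.23 and 2.02 FPKM with CLE9. Its difference of -1.27 ± 0.65 (limma adjusted p = 0.657) was -0.43 without both replicate 2 libraries. PAP26, a vacuolar and secreted purple acid phosphatase, was at 78.2 ± 9.96 and 61.9 ± 13.1 FPKM (limma adjusted p = 0.731). Of the list, 5 genes were listed at 0 in all 6 libraries, which are the purple acid phosphatase genes PAP5, PAP23 and PAP25 and the transporter genes PHT1;6 and PHT1;7.

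Of the 10 tested lipid genes of the list, 8 had a lower mean log2 level with CLE9, but 2 were lower and 2 higher in all 3 pairs. DGD2, which makes the galactolipid used outside plastids in phosphate shortage, was at 5.85 ± 0.681 FPKM in water and 8.11 ± 0.370 FPKM with CLE9 without overlap (log2 difference 0.41 ± 0.15, limma adjusted p = 0.496). PLDP1, a phospholipase D, was at 9.80 ± 1.15 and 12.0 ± 1.92 FPKM (limma adjusted p = 0.734). In carbon metabolism, APL3, a subunit of the starch enzyme ADP-glucose pyrophosphorylase, was at 3.81 ± 0.443 and 2.07 ± 0.930 FPKM without overlap (limma adjusted p = 0.506). The carboxylase gene PPC2 was at 52.2 ± 9.66 and 40.9 ± 23.5 FPKM (limma adjusted p = 0.814). Its CLE9 values were 52.2, 13.96 and 56.6 FPKM, and its difference of -0.55 was -0.08 without both replicate 2 libraries. Of the root growth genes, LPR1 and PDR2, which act in the arrest of the root tip on low phosphate, were at 1.24 ± 0.275 and 13.9 ± 0.787 FPKM in water and at 1.11 ± 0.165 and 15.4 ± 1.40 FPKM with CLE9 (limma adjusted p = 0.937 and 0.834).

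Without both replicate 2 libraries, in a comparison of 2 libraries with 2, limma called 4 of the 57 genes higher and 4 lower (7.02% each), beside 8.41% and 2.95% of all genes. Those not named above were chosen after their values were seen. PAP17, a purple acid phosphatase gene and marker of phosphate starvation, was at 10.7, 10.2 and 10.9 FPKM in water, and at 2.47, 15.7 and 3.55 FPKM with CLE9. CLE9 replicates 1 and 3 are far below the water group and CLE9 replicate 2 above it, with a difference of -0.86 ± 0.58 over all libraries (limma adjusted p = 0.736) and -1.57 without both replicate 2 libraries (adjusted p = 0.00441). CLE9 replicate 2 was also the highest CLE9 library for PHO1;H1 (2.90, 1.71 and 2.36 FPKM in water, 1.01, 2.73 and 1.13 FPKM with CLE9, adjusted p = 0.0273 by limma) and for the glycerol-3-phosphate permease gene G3Pp1 (5.25, 2.98 and 5.35 FPKM, and 2.90, 14.2 and 3.09 FPKM, limma adjusted p = 0.0305). These p-values are without both replicate 2 libraries. Over all libraries the difference was -0.38 for PHO1;H1 and 0.21 for G3Pp1 (limma adjusted p = 0.771 and 0.946). AT1G68670, a myb-like factor gene, was the other lower call (-0.61, limma adjusted p = 0.0301).

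The genes called higher without both replicate 2 libraries were the transcription factor genes WRKY6, WRKY75, ZAT6 and STOP1. WRKY6 was at 16.4, 128.8 and 13.2 FPKM in water and at 59.6, 196 and 52.5 FPKM with CLE9 (limma adjusted p = 0.00195 without both replicate 2 libraries). ZAT6 was at 4.91, 74.2 and 6.95 FPKM, and at 18.96, 93.4 and 13.2 FPKM (limma adjusted p = 0.0215). Both were highest in replicate 2 of either group. The 12 touch and wounding genes had a median difference between the groups of 0.86 over all libraries and 1.15 without both replicate 2 libraries. They did not move as one, and 3 of them were lower with CLE9 over all libraries. TCH4 (-1.30) and CBF2 (-1.33) were lower in all 3 pairs. The part of the 12 genes in the values of WRKY6 and ZAT6 was not tested. STOP1, a zinc finger factor of aluminium and phosphate responses in roots, was at 59.1, 92.9 and 58.98 FPKM in water, and at 122.9, 23.7 and 97.0 FPKM with CLE9. CLE9 replicate 2 was the lowest of the 6, and the difference over all libraries was -0.06 (limma adjusted p = 0.987). Without both replicate 2 libraries the difference was 0.88 (limma adjusted p = 0.0233).

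**Figure D4:**
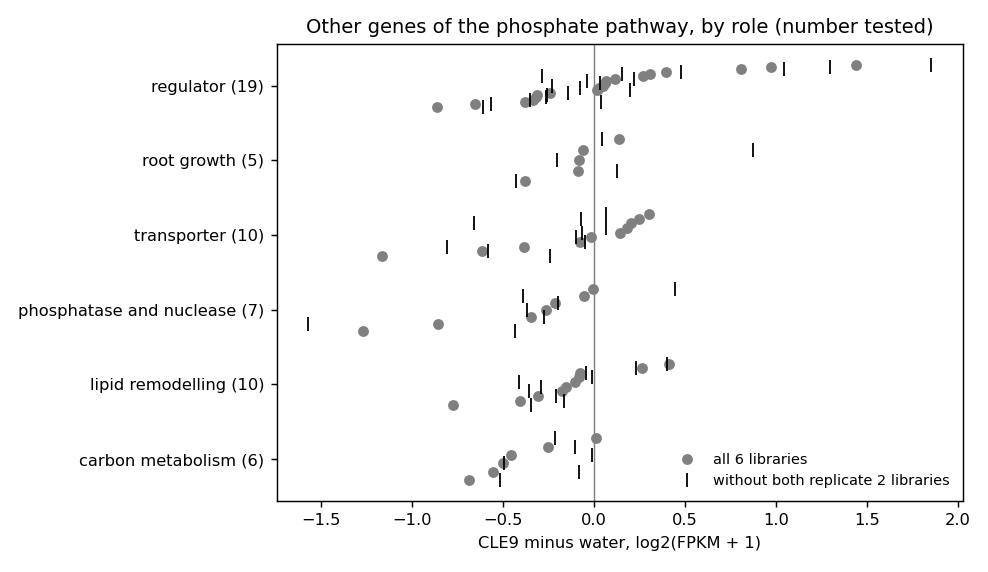
CLE9 minus water on the log2(FPKM + 1) scale (horizontal axis) for the 57 tested genes of the phosphate pathway list by role, with grey points for all 6 libraries and black ticks for the 4 libraries left without replicate 2. All 7 phosphatase and nuclease grey points lie below 0 and 1 tick of that row lies above it, and the tick at -1.57 in that row is PAP17.

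The pathway genes with and without the P1BS letters had similar medians. The 21 tested genes with a match had a median difference of -0.10, and 5 of them were lower and 2 higher in all 3 pairs. The 36 without a match had a median of -0.08, and 11 were lower and 7 higher in all 3 pairs. Of all genes tested, 26% were lower and 19.8% higher in all 3 pairs. Without both replicate 2 libraries the medians were -0.08 and -0.18.

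By Pearson's r over the 6 libraries, the profiles most like that of PEPC1 among the other 17811 genes were those of PP2-A12 (r = 0.996), AT3G07700 (0.994), KCS11 (0.993), PP2-A14 (0.990) and AT5G49448 (0.990). None is on the phosphate list. They are the highest among so many genes with 6 points. How often chance gives such values was not computed, so they are a description only. PP2-A12 and PP2-A14, phloem protein genes, were at 3.18, 2.76 and 3.05 FPKM and at 11.2, 12.2 and 10.98 FPKM in water. With CLE9 they were at 1.34, 1.20 and 1.19 FPKM and at 5.65, 4.50 and 5.14 FPKM. In these genes, as in PEPC1, all CLE9 values lie below all water values. This follows from picking them for likeness to PEPC1 and is not a separate result. AT3G07700, KCS11 and AT5G49448 overlap another gene of the table, so their single values are uncertain.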

How the data were processed

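RNA was extracted with TRIzol and libraries were made with the NEBNext Ultra kit, per the labels' protocols. The authors deposited a table of FPKM for 27416 genes in 6 libraries, per the file headers. TAIR10 is the build in the submitters' processing notes, which list DESeq2 1.16.1, featureCounts 1.5.0-p3, HISAT2 2.0.5, CASAVA 1.8 and StringTie 1.3.3b with no role for any of them. These sources do not say if counting was stranded, and none of the 10 genes overlaps another gene of the table. Symbols came from RefSeq (TAIR10.1, 26719 genes matched by locus). Promoter sequence was read from the TAIR10.1 genome at that annotation's own coordinates, while coordinates of genes are as deposited.

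The table holds no counts. In single-exon genes the low values gave an estimated depth of 20.5 to 31.6 M fragments per library, searched between 15 and 40 M. At the depth chosen because it gave the largest share, between 46.4% and 53.2% of them came within 0.1 fragments of a whole number. Chance gives 20% at a fixed depth, and the chance share for the best depth of a search was not computed. Reads were not recovered and estimates of fragments are approximate.

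Values were analysed as log2(FPKM + 1), a scale that understates changes of low genes. Genes that averaged at least 1 FPKM (17812) went into a limma fit (version 3.58.1, R 4.3.3; group only, moderation with a mean-variance trend, two-sided, Benjamini-Hochberg over all genes, adjusted p under 0.05). The fit was also run on simulated libraries with less spread than these and no shift of replicate 2. That run checks the code only and says nothing of the error rate in these data. For the 10 genes the SE is that of the difference of the group means. For the other genes it is limma's. The replicate numbers, which the labels give, were taken to pair the libraries. Libraries of the same number deviated together from their group means (r = 0.545, 0.743 and 0.583 across genes for replicates 1, 2 and 3). Deviations within a group cancel out, so a shift common to the replicate 2 libraries alone gives a positive r among replicates 1 and 3. Controls 1 and 3 each correlated more with the other's CLE9 library (0.664 for control 1 with CLE9 3, 0.620 for control 3 with CLE9 1) than with their own, so the data set only pair 2 apart.

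The 10 genes, the pathway list and the marker lists were chosen with earlier results of these data known. The named genes are the 10, then PHR1, SPX4, PHO2, NLA, IPS1 and AT4, then up to 4 called genes per role and direction or, in a role with no call, the 2 with the smallest p, and the 5 profiles most like PEPC1. PAP10, PHT2;1, PHT3;1, PHF1 and genes called only without both replicate 2 libraries fall outside this rule and were named after their values were seen. Alternatives were a pseudocount of 0.1, no filter on low values, the replicate block, quantile normalization, leaving out each library, and leaving out both replicate 2 libraries. Fits with the block that leave out a pair, and the sum of the PHT1 copies, were added after seeing the data.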

Additional observations from a re-analysis of the deposited data

How the results depend on the processing

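The number of genes called by limma over the whole table was 1 with group only, 355 with the replicate block, 2 with quantile normalization and 2024 without both replicate 2 libraries. It ranged from 0 to 204 when each library was left out in turn. With the block it was 0 without pair 1, 1870 without pair 2 and 0 without pair 3. Among the 57 pathway genes, 0 were called in either direction except when replicate 2 was left out. Without both replicate 2 libraries 4 were higher and 4 lower, and with the block and without pair 2 the counts were 4 and 2. The replicate block changed no other call among the pathway genes. The median difference of the 10 genes kept its sign under the 9 alternatives tried, between -0.51 and -0.07. Among 91 single values of the 10 genes under these alternatives, the sign turned in 10 (SPX1, SPX3, SQD1 and PHT1;1), and 2 moved by more than the spread between replicates. These were PEPC1 and PS2 with a pseudocount of 0.1, a change of scale that shrinks low genes less. The spread is each gene's own on the log2(FPKM + 1) scale, 0.11 for PEPC1 and 1.24 for PHO1. PHO1 therefore ran from -1.48 to -0.09 without counting as moved, and the label does not rank the genes by stability. The estimated depth limits SPX3 and IPS1, which rest on few fragments.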

Other observations

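PHT3;1, PHF1 and PHT2;1 were picked after their values were seen. Of the other transport genes of the phosphate list, none passed the test with group only or with the block. The mitochondrial phosphate carrier gene PHT3;1 was at 95.1, 77.6 and 97.8 FPKM in water and at 83.1, 115 and 101.8 FPKM with CLE9. PHF1, which helps PHT1 proteins leave the endoplasmic reticulum, was at 8.45, 11.4 and 9.23 FPKM and at 8.67, 15.6 and 9.95 FPKM. The chloroplast phosphate transporter gene PHT2;1 was at 136.6, 78.1 and 131.6 FPKM in water, and at 114.3, 8.81 and 112.6 FPKM with CLE9, so that its mean difference of -1.16 was -0.24 without both replicate 2 libraries. The 8 green tissue markers were also lowest in CLE9 replicate 2, with a median shift of -1.73 on the log2 scale, and their part in the value of PHT2;1 was not tested.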
